A study of Mus musculus with 26 samples.

Results

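The mouse Cyp3a cytochromes P450 were followed across 26 liver libraries through 8 genes: Cyp3a11, Cyp3a13, Cyp3a16, Cyp3a25, Cyp3a41a, Cyp3a41b, Cyp3a44 and Cyp3a59. The members were taken by gene symbol from a table of read counts for 47643 genes, and all 8 had a row. The samples were mRNA sequencing libraries of whole liver or isolated hepatocytes, in 10 groups that form 5 pairs of a treated group and its own control. Wild-type C57BL/6J mice aged 8 weeks received corn oil or TCPOBOP, an agonist of the constitutive androstane receptor CAR (2 libraries each, whole liver, fed ad libitum). For the TCPOBOP group the sample titles give 36 h after injection and the source names give 6 h, so the time is uncertain. Wild-type C57BL/6J mice were compared with Fxr-/- Shp-/- mice, in which Nr1h4 (Fxr, a bile acid receptor) and Nr0b2 (Shp, a corepressor) are deleted, at 12 weeks (3 libraries each, whole liver, fed ad libitum). C3H/HeN mice aged 8 to 10 weeks, with no genotype in the labels, were sampled as sham at 0 h or at 48 h after partial hepatectomy, PHx (3 libraries each, whole liver, fed ad libitum). Hepatocytes came from wild-type C57BL/6J mice aged 16 weeks on chow or on a 60% high fat diet, both after a 10 h fast (2 libraries each). The last pair was C57BL/6J mice of genotype fl/fl Fxr fl/fl Shp, aged 10 to 12 weeks, on chow or a cholic acid diet after an 8 to 10 h fast (3 libraries each, whole liver). Both of these groups carry the floxed alleles, and no Cre is named in the labels. Cholic acid is a primary bile acid, and TCPOBOP is a synthetic ligand.

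CYP3A enzymes are heme proteins of the endoplasmic reticulum that oxidize drugs, steroids and bile acids with electrons passed on by NADPH-cytochrome P450 reductase. In the liver their transcription is controlled by the nuclear receptors PXR (gene Nr1i2) and CAR (gene Nr1i3), which bind DNA with RXR and respond to foreign chemicals and to bile acids. Cyp3a11 is the main drug-metabolising member of adult mouse liver, whereas Cyp3a16, Cyp3a41 and Cyp3a44 are known as members of fetal or female liver.

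The members lie on chromosome 5 of GRCm38. In the GENCODE M21 annotation Cyp3a13 stands apart at 137892932 to 137921619, and the other 7 members lie between 145436309 (Cyp3a16) and 146113287 (Cyp3a59). Along the chromosome the order is Cyp3a16, Cyp3a41b, Cyp3a41a, Cyp3a44, Cyp3a11, Cyp3a25 and Cyp3a59, and Cyp3a59 alone of the 8 is annotated on the plus strand. Each member's longest coding transcript has 13 exons, and the coding lengths are 1509 bases (Cyp3a13, Cyp3a25, Cyp3a59) or 1512 bases (the other 5). The coding sequences fall into 2 sets of close relatives beside Cyp3a13. Cyp3a25 and Cyp3a59 are 97.5% identical. Cyp3a11 is 92.8% to 95.2% identical to Cyp3a16, Cyp3a41a, Cyp3a41b and Cyp3a44, and 76.1% identical to Cyp3a25. Cyp3a13 is 75.1% to 76.8% identical to any other member.

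Cyp3a41a and Cyp3a41b differ at 2 of 1512 coding bases, G120A and G336T (the base of Cyp3a41a, the position from 1 at the first base of the start codon, the base of Cyp3a41b). Coding bases 90 to 150 of this pair and of Cyp3a11 are shown because they show how few letters separate genes whose counts differed. Capitals mark the base of G120A in the pair and, in Cyp3a11, the bases that differ from Cyp3a41a. The same bases of Cyp3a44, not shown, are identical to those of Cyp3a41a, so this window does not separate Cyp3a41a from Cyp3a44.
Cyp3a41a: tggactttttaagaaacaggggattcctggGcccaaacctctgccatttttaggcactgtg
Cyp3a41b: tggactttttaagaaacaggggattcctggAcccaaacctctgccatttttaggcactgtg
Cyp3a11: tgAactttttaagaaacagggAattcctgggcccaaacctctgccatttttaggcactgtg
Of the 2011 stretches of 50 bases in the Cyp3a41a transcript, 28 (1.39%) occur in no other gene's transcripts, and 93.7% occur in Cyp3a41b. The unique share is 6.5% for Cyp3a41b, 72% to 89.3% for Cyp3a59, Cyp3a25, Cyp3a44, Cyp3a11 and Cyp3a16, and 100% for Cyp3a13. The deposited table keeps reads that align to several places apart from the gene counts, so counts of Cyp3a41a and Cyp3a41b come from a small part of each transcript. A count of 0 for either of them sets no limit on the transcript itself.

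The sequence before the start of 5 members is shown because these are the members whose levels are described at length below and because the pairs can be compared letter by letter. Each stretch is RefSeq sequence (GRCm38.p6), ends before the first transcribed base in both RefSeq and GENCODE, and is written in the direction of transcription. Capitals mark the hexamers AGGTCA and AGTTCA, read on either strand, which are the words recognized by many nuclear receptors.
Cyp3a11 (chr5:145879965-145880104, minus strand): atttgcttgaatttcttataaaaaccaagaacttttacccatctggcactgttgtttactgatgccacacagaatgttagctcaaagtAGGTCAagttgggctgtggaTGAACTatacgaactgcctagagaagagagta
Cyp3a25 (chr5:146009645-146009868, minus strand): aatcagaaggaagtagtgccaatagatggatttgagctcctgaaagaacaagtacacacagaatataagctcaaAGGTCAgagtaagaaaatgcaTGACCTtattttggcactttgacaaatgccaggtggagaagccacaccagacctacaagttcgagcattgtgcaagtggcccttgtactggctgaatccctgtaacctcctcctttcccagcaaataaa
Cyp3a59 (chr5:146079008-146079207, plus strand): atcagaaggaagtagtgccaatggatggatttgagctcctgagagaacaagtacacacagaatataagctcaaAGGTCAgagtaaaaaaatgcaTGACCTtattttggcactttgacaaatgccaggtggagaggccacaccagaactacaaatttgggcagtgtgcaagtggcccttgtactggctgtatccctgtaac
Cyp3a41a (chr5:145720137-145720386, minus strand): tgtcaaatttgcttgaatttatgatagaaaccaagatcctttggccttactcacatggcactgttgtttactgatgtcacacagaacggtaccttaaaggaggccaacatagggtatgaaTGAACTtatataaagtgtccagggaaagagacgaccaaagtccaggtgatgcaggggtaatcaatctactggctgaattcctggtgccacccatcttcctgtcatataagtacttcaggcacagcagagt
Cyp3a44 (chr5:145805892-145806124, minus strand): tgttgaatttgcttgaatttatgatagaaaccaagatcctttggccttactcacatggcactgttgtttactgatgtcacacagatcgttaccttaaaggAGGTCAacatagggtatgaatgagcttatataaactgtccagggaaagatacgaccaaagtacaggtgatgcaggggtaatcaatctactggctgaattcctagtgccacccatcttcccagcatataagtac
In windows of 250 bases before to 50 bases after each start, which were found for all 8 members, the hexamers occur 2 times in Cyp3a11, Cyp3a25 and Cyp3a59, 1 time in Cyp3a41a, Cyp3a41b and Cyp3a44, and 0 times in Cyp3a13 and Cyp3a16. At least 1 hexamer is held by 27.7% of 32851 such windows of all genes. In Cyp3a25 and in Cyp3a59 the 2 hexamers point toward each other with 15 bases between them, and in Cyp3a11 with 14. No member's window holds a paired arrangement of the hexamers as direct repeats (AGGTCANAGGTCA, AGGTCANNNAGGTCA, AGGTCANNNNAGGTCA) or everted repeats (TGACCTNNNNNNAGGTCA, TGACCTNNNNNNNNAGGTCA), where each AGGTCA could also be AGTTCA and each TGACCT could also be TGAACT, on either strand. These arrangements overlap the single hexamers and are held by 0.00913% to 0.0822% of all windows. The word TTCNNNGAA, recognized by STAT factors, is in no member's window and in 8.3% of all windows. The absence of a word describes these 300 bases only. The 250 bases upstream are 94.8% identical between Cyp3a25 and Cyp3a59 and 90.9% to 99.6% identical among Cyp3a16, Cyp3a41a, Cyp3a41b and Cyp3a44, whereas Cyp3a11 is 71.7% to 76.2% identical to these 4.

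Reads counted to genes ranged from 13949059 to 70367874 per library. Levels are given as CPM, a gene's reads relative to all gene reads of its library, scaled by TMM within each of the 5 pairs, so a level set beside one from another pair carries that limit. A log2 fold change is from edgeR's quasi-likelihood test over all genes of a pair, with its standard error (SE), and a gene was called raised or lowered at a Benjamini-Hochberg adjusted p under 0.05. The labels do not say that each library is a separate mouse, so p-values measure the spread between these libraries. The targets of the knockout were lower in the Fxr-/- Shp-/- libraries, with Nr1h4 at 55.7 to 65.0 CPM against 117 to 161 CPM in wild type and Nr0b2 at 0.595 to 1.68 CPM against 13.7 to 28.2 CPM. The sex of the mice is not labelled, and every one of the 26 libraries had 8 or fewer Xist reads and 779 or more reads of Ddx3y on the Y chromosome. One control library went against its label. Cyp2b10, the standard CAR target, reached 3786 CPM in what is labelled corn oil 1 but 10.3 CPM in corn oil 2, and the TCPOBOP libraries had 3079 and 3465 CPM. Each test of the TCPOBOP pair is therefore given with and without that library. Whole-liver libraries hold all liver cells, and in them fewer cells of a type and less RNA per cell cannot be told apart. The hepatocyte markers Alb, Ttr, Apoa1, Apob and Fgb summed to 46857 CPM or more in every library, and the gut markers Sis and Alpi were at 0 in every group but wild type. With Vil1, Fabp2 and Lct, the 5 gut markers summed to 11.8 to 14.5 CPM in Fxr-/- Shp-/- libraries and to as much as 115 CPM in a floxed chow library.

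Cyp3a11 was the most abundant member in all but the sham libraries and the hepatocytes of mice on a high fat diet. Its mean level ran from 137 ± 12.3 CPM (SD, n = 2) in high fat hepatocytes to 31526 ± 621 CPM (SD, n = 3) in Fxr-/- Shp-/- liver. Per kilobase of transcript, the scale on which members can be set beside each other, wild-type liver held 7614 CPM per kb of Cyp3a11, 941 of Cyp3a25, 123 of Cyp3a59 and 123 of Cyp3a13. The other 4 members were at or below 0.424 CPM per kb there. Cyp3a11 made up 85.9% to 88.4% of the family's summed CPM in wild type, 37.0% to 43.2% in sham liver and 11.3% to 12.5% in high fat hepatocytes. The family's reads were 3.62% of all gene reads in the Fxr-/- Shp-/- group on average, 1.90% in wild type, 0.145% in sham and 0.120% in high fat hepatocytes.

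**Figure D1:**
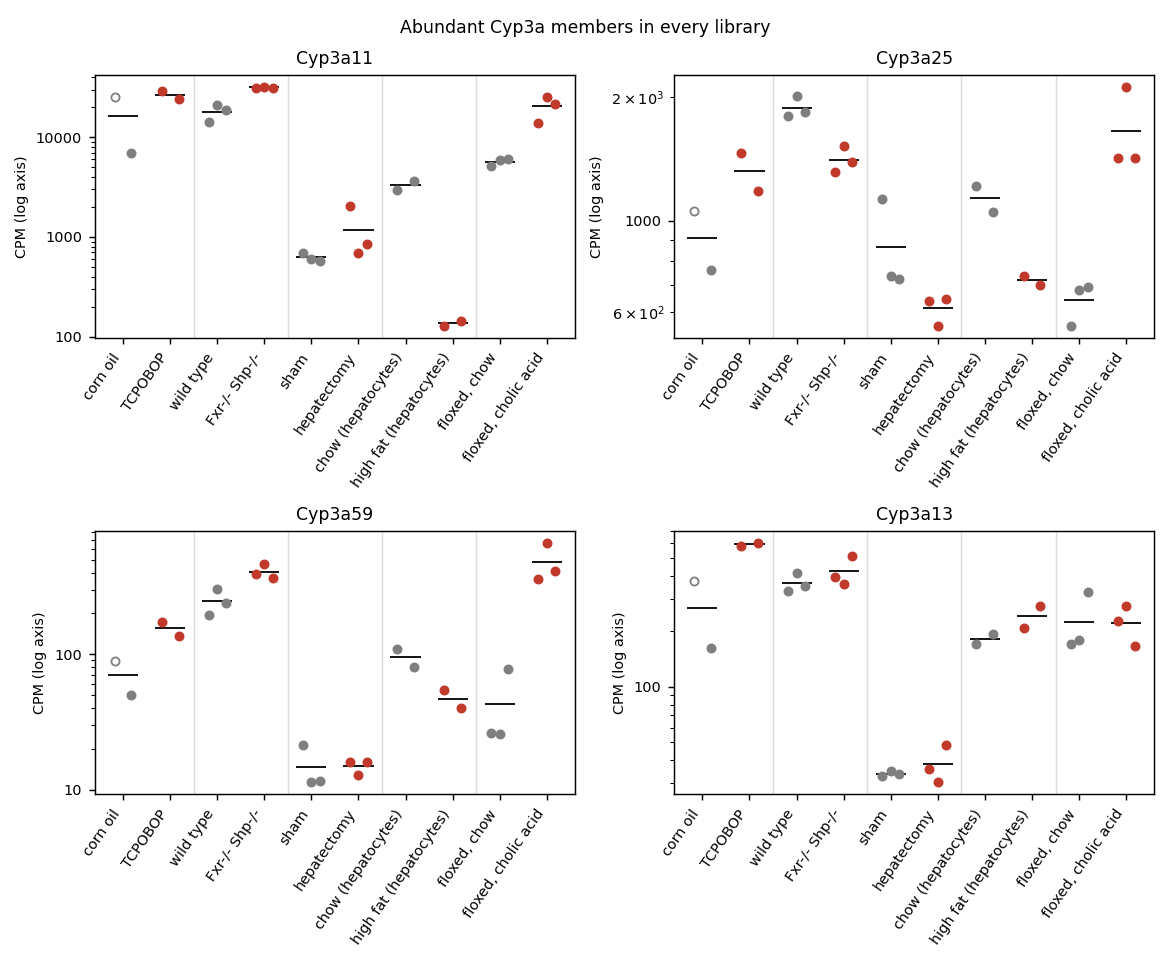
Level of Cyp3a11, Cyp3a25, Cyp3a59 and Cyp3a13 in each of the 26 libraries, in CPM on a log axis, by group. Points are libraries (grey for control groups, red for treated groups, open for the library labelled corn oil 1), bars are group means, and grey lines separate the 5 pairs. Cyp3a11 spans from 128 CPM in a high fat hepatocyte library to 32221 CPM in a Fxr-/- Shp-/- library, while Cyp3a25 stays between 556 and 2117 CPM.

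The order of the group levels differed between members. Cyp3a11 was highest in Fxr-/- Shp-/- liver, and no library of another group overlapped these 3. TCPOBOP, cholic acid, wild type and corn oil followed, each overlapping the next, and floxed chow, chow hepatocytes, hepatectomy, sham and high fat hepatocytes came after them in that order with no overlap between neighbours. The corn oil level in this order includes the library labelled corn oil 1. Cyp3a25 was highest in wild type and lowest after hepatectomy, and only high fat hepatocytes and floxed chow were neighbours without overlap. Cyp3a59 was highest with cholic acid, which overlapped Fxr-/- Shp-/- liver, and lowest in sham, which overlapped hepatectomy. Cyp3a13 was highest with TCPOBOP and lowest in sham and hepatectomy liver, whose libraries (30.4 to 48.5 CPM) all stood below the other 20 (163 to 603 CPM). These last 6 libraries are also the only ones of C3H/HeN mice, and strain and pair cannot be told apart.

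In Fxr-/- Shp-/- liver 4 of the 8 members were raised and 1 was lowered, while Cyp3a16 and Cyp3a41b did not pass the filter on low counts and were not tested. Among the 4 raised members, Cyp3a41a passed that filter through the knockout libraries alone, so it had to differ. Of all 13473 genes tested in this pair, 21.0% were raised and 19.4% were lowered, so calls were common, and with scaling by library size alone the raised share of the calls went from 51.9% to 76.4%. Cyp3a11 stood at 14196, 20805 and 18543 CPM in wild type and at 31027, 32221 and 31329 CPM in Fxr-/- Shp-/- liver. All 3 knockout libraries were above all 3 wild-type libraries and lay close together. The change was a log2 fold change of 0.82 ± 0.17 (SE; edgeR adjusted p 0.00471, n = 3 per group).

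Cyp3a25 went the other way. It stood at 1799, 2009 and 1836 CPM in wild type and 1312, 1518 and 1393 CPM in the knockout, with no overlap, a log2 fold change of -0.42 ± 0.11 (SE; edgeR adjusted p 0.0152). Its close relative Cyp3a59, which shares 97.5% of the coding bases, was raised from 195, 304 and 237 CPM to 389, 461 and 369 CPM, a log2 fold change of 0.73 ± 0.17 (SE; edgeR adjusted p 0.00839). The 2 genes thus moved in opposite directions in the same libraries. The ratio of Cyp3a59 to Cyp3a25 reads within a library, which no scaling between libraries can alter, was 0.108 to 0.152 in wild type and 0.265 to 0.304 in the knockout. The ratio of Cyp3a11 to Cyp3a25 reads went from 7.89 to 10.4 in wild type to 21.2 to 23.6 in the knockout. Cyp3a13 was at 331 to 412 CPM in wild type and 362 to 510 CPM in the knockout, overlapping groups with a log2 difference of 0.21 ± 0.15 (SE; edgeR adjusted p 0.277).

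Of the sparse members, Cyp3a41a was found almost wholly in the knockout libraries. It had 0, 1 and 0 reads in the wild-type libraries and 710, 524 and 60 reads in the knockout libraries. In the other 20 libraries it had at most 2 reads. Against a wild-type total of 1 read the knockout total of 1294 reads is a ratio of 991 per read sequenced, with a 95% interval of 178 to 39157 that covers counting error only, and edgeR called it raised (adjusted p 0.00143). It passed the filter on low counts through the knockout libraries alone, so it had to differ. The knockout libraries themselves ranged from 2.59 to 32.5 CPM. Cyp3a41b, which can be told from Cyp3a41a only over a small part of its length, had 0, 5 and 3 reads in wild type and 4, 5 and 4 reads in the knockout and was not tested.

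Cyp3a44 was raised in the knockout, from 13, 16 and 13 reads to 68, 81 and 35 reads (0.698 to 1.01 CPM against 1.51 to 3.76 CPM), a log2 fold change of 1.74 ± 0.38 (SE; edgeR adjusted p 0.00724). Cyp3a16 had 3, 2 and 1 reads in wild type and 17, 8 and 8 reads in the knockout, a mean of 0.116 against 0.498 CPM. It did not pass the filter on low counts, and without that filter its log2 fold change was 2.03 ± 0.67 (SE; edgeR adjusted p 0.0306). Reads that aligned to several places, which were left out of all gene counts, were 43.2% to 44.1% of the tallied reads in wild type and 25.5% to 26.9% in the knockout, and the part of this difference in the counts of the sparse members was not tested.

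**Figure D2:**
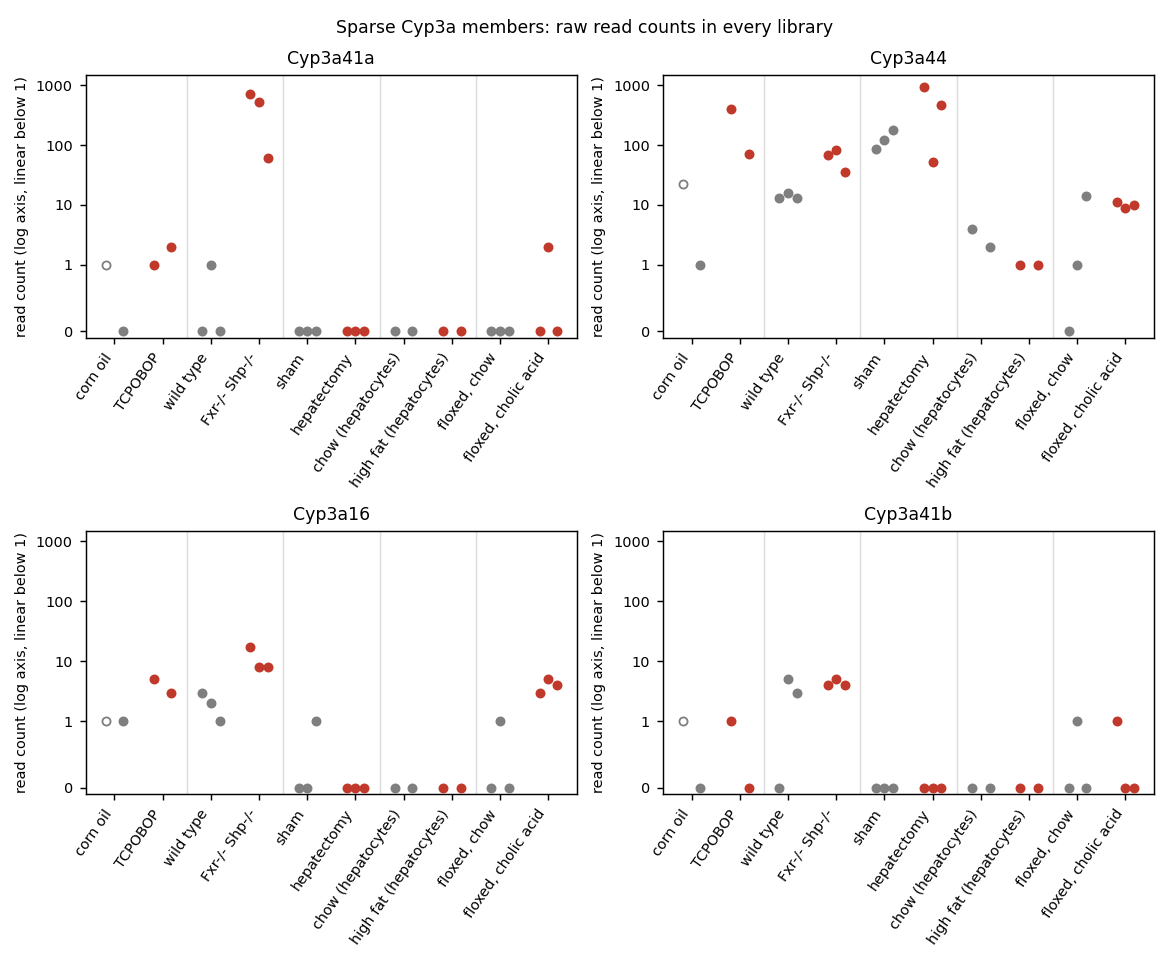
Raw read counts of Cyp3a41a, Cyp3a44, Cyp3a16 and Cyp3a41b in each of the 26 libraries, on an axis that is logarithmic above 1 read and linear below. Points are libraries (grey for control groups, red for treated groups, open for the library labelled corn oil 1). Cyp3a41a has 60 to 710 reads in the 3 Fxr-/- Shp-/- libraries and 0 to 2 reads in all others, while Cyp3a44 reaches its highest counts, 943 and 474, after hepatectomy. The counts are not scaled by library size.

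Calls in the knockout pair differed between fits. With all 26 libraries in 1 fit, the adjusted p was 0.101 for Cyp3a11, 0.0719 for Cyp3a25, 0.131 for Cyp3a59 and 0.15 for Cyp3a44, and 1 member, Cyp3a41a, was still called. When the library labelled corn oil 1 was left out of that fit, an alternative added after seeing the data, Cyp3a11 was called again (edgeR adjusted p 0.0359) together with Cyp3a16 and Cyp3a41a. Cyp3a25 also lost its call with scaling by library size alone (log2 fold change -0.22, edgeR adjusted p 0.145), which moves the median of all genes by 0.201, and without Fxr-/- Shp-/- replicate 1 (-0.37, adjusted p 0.0715), while Cyp3a13 was called with library size alone (0.41, adjusted p 0.0408).

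After cholic acid, 3 members were raised and none was lowered, with Cyp3a59 raised the most. In this pair 2.27% of 12577 genes were raised and 2.50% were lowered, and with scaling by library size alone the raised share of the calls went from 47.5% to 69.6%. Cyp3a59 stood at 26.1, 25.8 and 78.0 CPM on chow and at 359, 665 and 411 CPM on cholic acid. Every cholic acid library was above every chow library, although chow replicate 3 stood apart from the other 2 chow libraries. The log2 fold change was 3.47 ± 0.49 (SE; edgeR adjusted p 0.0103, n = 3 per group), and the means differed 11.1-fold. Without floxed chow replicate 3 the log2 fold change was 4.21 (edgeR adjusted p 0.00145), and the means differed 18.5-fold.

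Cyp3a11 was raised from 5156, 5863 and 6068 CPM to 13997, 25480 and 21731 CPM, a log2 fold change of 1.84 ± 0.26 (SE; edgeR adjusted p 0.0103). Cyp3a25, which was lowered in the knockout, was raised here from 557, 679 and 690 CPM to 1423, 2117 and 1417 CPM. Its log2 fold change was 1.36 ± 0.22 (SE; edgeR adjusted p 0.0140). That call was lost without floxed chow replicate 1 (edgeR adjusted p 0.0544) or replicate 2 (adjusted p 0.0624). Cyp3a59 to Cyp3a25 ratios within a library lay between 0.0380 and 0.113 on chow and between 0.252 and 0.314 on cholic acid.

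Cyp3a13 did not follow its relatives, with 170, 180 and 326 CPM on chow, 227, 273 and 166 CPM on cholic acid and a log2 difference of -0.02 ± 0.29 (SE; edgeR adjusted p 0.974). Cyp3a44 had 0, 1 and 14 reads on chow and 11, 9 and 10 reads on cholic acid and was not tested. Its chow reads came almost wholly from replicate 3, the library that was also high for Cyp3a59 and Cyp3a13. Cyp3a16 had 1 read in 3 chow libraries and 12 in 3 cholic acid libraries, a ratio of 8.50 with a 95% interval of 1.26 to 364 for counting error only. It did not pass the filter on low counts, and without that filter its log2 difference was 2.77 ± 1.23 (SE; edgeR adjusted p 0.267). Cyp3a41a had 2 reads in all 6 libraries together and Cyp3a41b also had 2.

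On the high fat diet 3 of 4 tested members were lowered, and Cyp3a11 was lowered by more than any tested member of the other pairs. It stood at 2963 and 3665 CPM in chow hepatocytes and at 128 and 145 CPM in high fat hepatocytes, and the means differed 24.3-fold. The log2 fold change was -4.60 ± 0.16 (SE; edgeR adjusted p 0.000386, n = 2 per group). In this pair 12.9% of 13892 genes were raised and 11.1% were lowered (raised share of the calls 53.7%, and 74.2% with scaling by library size alone). Cyp3a25 and Cyp3a59 fell by less. Cyp3a25 went from 1216 and 1054 CPM to 736 and 701 CPM (log2 fold change -0.66 ± 0.10, SE; edgeR adjusted p 0.0123). Cyp3a59 went from 110.0 and 80.2 CPM to 54.2 and 40.1 CPM (log2 fold change -1.01 ± 0.20, SE; edgeR adjusted p 0.0208). Cyp3a25 was then the most abundant member. The ratio of Cyp3a11 to Cyp3a25 reads was 2.44 and 3.48 on chow and 0.174 and 0.207 on the high fat diet.

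Cyp3a13 was the exception, at 171 and 193 CPM on chow and 209 and 273 CPM on the high fat diet. The groups did not overlap, and the log2 difference of 0.41 ± 0.15 (SE) did not pass the test (edgeR adjusted p 0.0960), although it did without high fat replicate 1 (0.59, adjusted p 0.0457) and with scaling by library size alone (0.53, adjusted p 0.0424). Cyp3a44 had 4 and 2 reads on chow and 1 and 1 on the high fat diet, and Cyp3a16, Cyp3a41a and Cyp3a41b had 0 reads in all 4 libraries, where 3 reads correspond to 0.0403 CPM in the deepest library. With all 26 libraries in 1 fit the calls of Cyp3a25 (edgeR adjusted p 0.0749) and Cyp3a59 (0.158) were lost and that of Cyp3a11 held. Markers of other liver cells were higher in the high fat hepatocytes, in a pair where 12.9% of all genes were raised. Of the raised stellate markers 1 had fewer than 10 reads in every chow library, so its call adds no support. All 5 endothelial markers, 4 of 5 stellate markers and 4 of 5 macrophage markers were raised, with endothelial sums of 34.6 to 36.7 CPM on chow and 85.3 to 87.7 CPM on the high fat diet, stellate sums of 3.71 to 7.03 and 17.1 CPM, and macrophage sums of 21.7 to 23.6 and 39.7 to 42.4 CPM. The sum of the hepatocyte markers was 86761 to 90084 CPM on chow and 87529 to 87726 CPM on the high fat diet, and Krt19, Epcam and Cftr of the 6 cholangiocyte markers were at 0 in both chow libraries. The part of these cells in the Cyp3a values was not tested.

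After partial hepatectomy 0 of 5 tested members were called, in a pair where 16.4% of 13753 genes were raised and 14.3% were lowered (raised share of the calls 53.4%, and 78.0% with scaling by library size alone). DESeq2's Wald test called 1 of them, Cyp3a25 (adjusted p 0.0268), among 4506 genes in all. Before adjustment edgeR's p was under 0.05 for Cyp3a11 and Cyp3a25. The share of all genes under it was not counted, so this says nothing particular about the members. Cyp3a11 stood at 696, 598 and 581 CPM in sham and at 2027, 697 and 842 CPM at 48 h. The groups did not overlap, but hepatectomy replicate 1 was far above the other 2, and the log2 difference was 0.93 ± 0.36 (SE; edgeR adjusted p 0.0860). Without hepatectomy replicate 2 or replicate 3 the adjusted p was 0.0354 or 0.0446, and without hepatectomy replicate 1 the log2 difference was 0.30 (edgeR adjusted p 0.120). Cyp3a25 stood at 1130, 735 and 723 CPM in sham and 641, 556 and 647 CPM after hepatectomy, also without overlap (log2 difference -0.49 ± 0.17, SE; edgeR adjusted p 0.0671).

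Cyp3a44 reached its highest read counts in this pair. Scaled by library size, its level in TCPOBOP replicate 1 (23.1 CPM) lay above that in hepatectomy replicates 2 and 3 (1.56 and 13.1 CPM). It had 87, 123 and 180 reads in sham and 943, 53 and 474 reads after hepatectomy, so that the groups overlapped (2.84 to 6.17 CPM against 1.56 to 27.5 CPM; log2 difference 1.74 ± 0.80, SE; edgeR adjusted p 0.136). Without hepatectomy replicate 2 the log2 fold change was 2.26 (edgeR adjusted p 0.00728), and without hepatectomy replicate 1 it was 0.80 (adjusted p 0.448). Cyp3a59 was at 21.3, 11.3 and 11.6 CPM in sham and 15.9, 12.9 and 16.0 CPM after hepatectomy, a log2 difference of 0.02 ± 0.24 (SE) with a 95% interval from -0.54 to 0.58. Cyp3a13 differed by 0.17 ± 0.16 (SE; edgeR adjusted p 0.453). Cyp3a16 had 1 read in the 6 libraries, and Cyp3a41a and Cyp3a41b had 0. The ratio of Cyp3a59 to Cyp3a25 reads was 0.0154 to 0.0188 in sham and 0.0232 to 0.0249 after hepatectomy, without overlap.

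In the TCPOBOP pair 0 of 5 tested members were called with all 4 libraries, as were 0% of all 12785 genes in either direction. DESeq2's Wald test called 0 members and 109 genes in all. Before adjustment edgeR's p was under 0.05 for Cyp3a13, Cyp3a44 and Cyp3a59. The share of all genes under it was not counted, so this says nothing particular about the members. Cyp3a11 had values of 25416 (labelled corn oil 1) and 6949 CPM (corn oil 2) in the control group and 29083 and 24264 CPM in the treated group. The library labelled corn oil 1 thus lay between the treated libraries. For Cyp3a13 the values were 373 and 163 CPM with corn oil and 580 and 603 CPM with TCPOBOP. Cyp3a25 stood at 1057 and 760 CPM against 1457 and 1181 CPM, and Cyp3a59 at 89.8 and 50.03 CPM against 174 and 137 CPM. For these 3 members the library labelled corn oil 1 lay between corn oil 2 and the TCPOBOP libraries. Cyp3a44 had 22 reads and 1 read with corn oil (1.25 and 0.0572 CPM) and stood at 23.1 and 4.40 CPM with TCPOBOP.

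Without the library labelled corn oil 1 all 5 tested members were raised, where 5.71% of 13190 genes were raised and 3.64% were lowered. Without corn oil 2, by comparison, Cyp3a13 (0.67, edgeR adjusted p 0.0497) and Cyp3a59 (0.80, adjusted p 0.0417) were called. With 1 control library left, its spread is assumed to be that of the TCPOBOP libraries. The log2 fold changes were 1.94 ± 0.28 for Cyp3a11 (SE; edgeR adjusted p 0.00463), 1.86 ± 0.15 for Cyp3a13 (adjusted p 0.000358), 1.64 ± 0.17 for Cyp3a59 (adjusted p 0.00115) and 0.80 ± 0.19 for Cyp3a25 (adjusted p 0.0332). Cyp3a44 rose from 1 read to 70 reads or more, a log2 fold change of 7.74 ± 1.61 (SE) that rests on that single read. It passed the filter on low counts through the TCPOBOP libraries alone, so it had to differ. Its place among the 5 raised members therefore supports nothing. Cyp3a13 was thus called in this pair without that library and in none of the other 4 pairs, and whether its change differs from theirs was not tested. Cyp3a16 had 1 and 1 reads with corn oil and 5 and 3 with TCPOBOP, and Cyp3a41a and Cyp3a41b had at most 2 reads in any of these libraries.

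**Figure D3:**
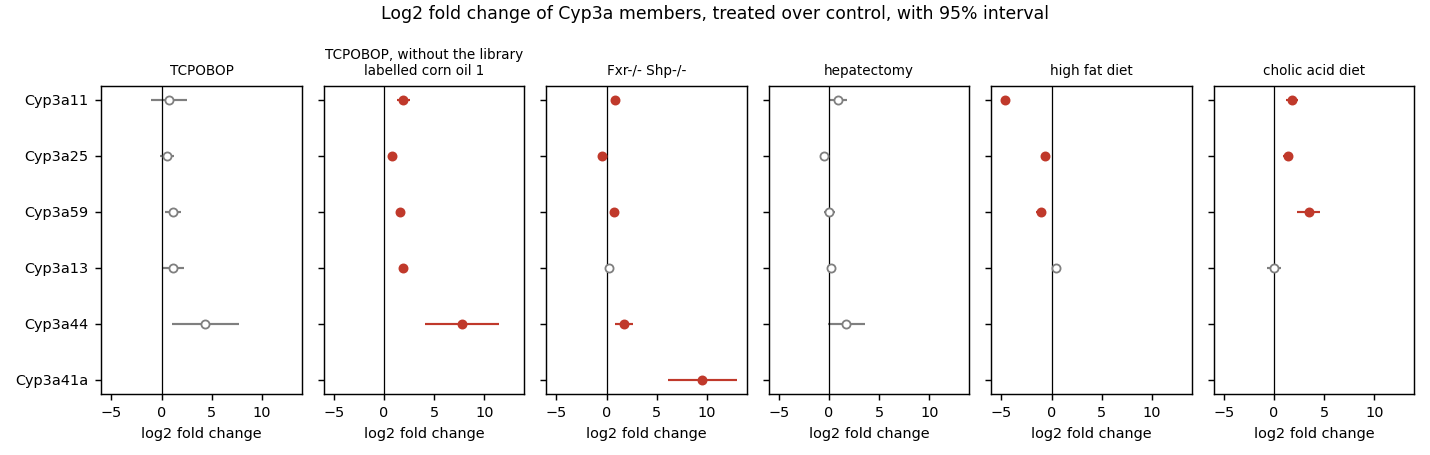
Log2 fold change of each tested member, treated over control, in the 5 pairs and in the TCPOBOP pair without the library labelled corn oil 1. Bars are 95% intervals, filled red points passed an adjusted p of 0.05 in edgeR's quasi-likelihood test, open grey points did not, and a missing point is a member that did not pass the filter on low counts. Cyp3a11 runs from -4.60 on the high fat diet to 1.94 with TCPOBOP, while Cyp3a13 is called in the TCPOBOP panel without that library and in no other panel.

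The differences between the effects of separate pairs were tested for 4 combinations of pairs, where the pairs of a combination share no library. Between Fxr-/- Shp-/- and cholic acid 13.9% of all genes differed and 3 members did. The log2 fold change in the knockout was below that on cholic acid, with differences of -1.78 ± 0.25 for Cyp3a25 (SE; edgeR adjusted p 0.000743), -2.73 ± 0.55 for Cyp3a59 (adjusted p 0.00599) and -1.01 ± 0.31 for Cyp3a11 (adjusted p 0.0492). The Cyp3a11 difference was at the threshold and held in 3 of 12 fits that left out 1 library, those without wild-type replicate 1, floxed chow replicate 3 or cholic acid replicate 1, with values from -1.23 to -0.82 over the 12. Cyp3a13 differed by 0.24 ± 0.36 (SE), with a 95% interval from -0.53 to 1.01.

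Between Fxr-/- Shp-/- and the high fat diet 16.1% of all genes differed. Cyp3a11 differed by 5.43 ± 0.26 (SE; edgeR adjusted p 8.78e-07) and Cyp3a59 by 1.75 ± 0.29 (adjusted p 0.00244), whereas Cyp3a25, lowered in both pairs, differed by 0.25 ± 0.16 with a 95% interval from -0.10 to 0.60. Between the high fat diet and cholic acid 6.43% of all genes differed, among them Cyp3a11 (-6.42 ± 0.37, SE; edgeR adjusted p 4.96e-05), Cyp3a59 (-4.46 ± 0.69, adjusted p 0.00845) and Cyp3a25 (-2.00 ± 0.29, adjusted p 0.00602). The Cyp3a59 call was lost without chow hepatocyte replicate 1 (edgeR adjusted p 0.0527) or high fat replicate 2 (0.0620). Between hepatectomy and cholic acid 13.0% of all genes differed, among them Cyp3a25 (-1.85 ± 0.30, SE; edgeR adjusted p 0.00205) and Cyp3a59 (-3.44 ± 0.59, adjusted p 0.00326), while Cyp3a11 differed by -0.91 ± 0.48 (adjusted p 0.238) and, without hepatectomy replicate 1, by -1.53 (adjusted p 0.0132). Without floxed chow replicate 3 the Cyp3a59 differences were -3.48 (knockout), -5.22 (high fat diet) and -4.19 (hepatectomy) against cholic acid, all called. Cyp3a13 was called in none of the 4 combinations, and its widest interval was from -0.49 to 1.38. Cyp3a44 was called in none of them either, and its largest difference was between Fxr-/- Shp-/- and the high fat diet (3.44 ± 1.15, SE; edgeR adjusted p 0.0664, and 0.0147 without Fxr-/- Shp-/- replicate 3). Between the high fat diet and cholic acid it was -2.15 ± 1.80 (SE), and -5.40 without floxed chow replicate 3 (edgeR adjusted p 0.0259). Without that replicate Cyp3a44 had 0 and 1 reads on floxed chow and 1 to 4 in the hepatocyte libraries. It could then pass the filter on low counts only through the cholic acid libraries (9 to 11 reads), so this call supports nothing. For Cyp3a41a these fits gave no usable error, because its control libraries and the other pairs held almost no reads. The high fat pair is isolated hepatocytes and the others are whole liver, so in the combinations that hold it, diet and preparation cannot be told apart.

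**Figure D4:**
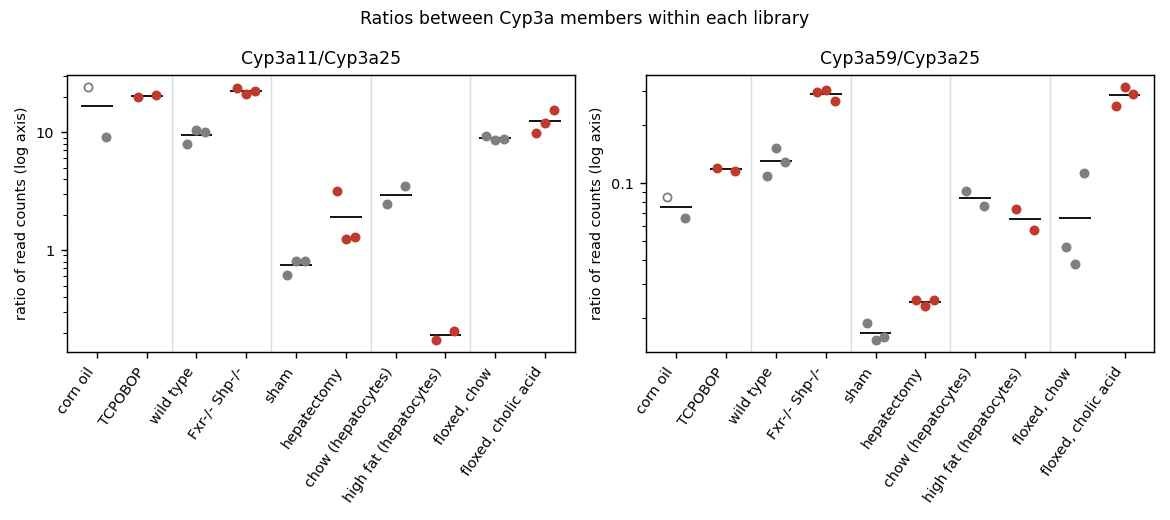
Ratio of read counts of Cyp3a11 to Cyp3a25 (left) and of Cyp3a59 to Cyp3a25 (right) within each library, on log axes, by group. Points are libraries (grey for control groups, red for treated groups, open for the library labelled corn oil 1) and bars are group means. The left ratio is 21.2 to 23.6 in Fxr-/- Shp-/- liver and 0.174 and 0.207 in high fat hepatocytes. The right ratio is 0.252 to 0.314 in the cholic acid libraries and 0.265 to 0.304 in the Fxr-/- Shp-/- libraries.

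The family's summed CPM leaves out reads that aligned to several places, such as those shared between members. Such reads were 43.2% to 44.1% of the tallied reads in wild type and 25.5% to 26.9% in the knockout, and their part in the sum was not tested. The sum was 20341 ± 3547 CPM in wild type and 33785 ± 732 CPM in Fxr-/- Shp-/- liver (SD, n = 3), 6607 ± 638 and 22756 ± 6320 CPM on chow and cholic acid (SD, n = 3), and 4726 ± 377 and 1144 ± 22.8 CPM on chow and the high fat diet (SD, n = 2). These 3 pairs of groups did not overlap. The sum was 1540 ± 297 CPM in sham and 1870 ± 771 CPM after hepatectomy (SD, n = 3) and 17430 ± 13445 and 28754 ± 3627 CPM with corn oil and TCPOBOP (SD, n = 2), and these groups overlapped. Without the library labelled corn oil 1 the control stood at 7923 CPM, below the TCPOBOP libraries at 31318 and 26189 CPM, and the means differed 3.63-fold.

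Across the 26 libraries the members' log2 CPM were alike to different degrees, given here as Pearson correlations over libraries that differ in strain, preparation and depth. Cyp3a25 and Cyp3a59 had the highest value (0.87), followed by Cyp3a13 and Cyp3a59 (0.80) and Cyp3a11 and Cyp3a59 (0.78). Cyp3a44 was between -0.28 and 0.25 with the other 5 members that passed the filter. Among 10153 other genes, those most like Cyp3a59 were Ephx1 (0.93), microsomal epoxide hydrolase, Slco1a4 (0.93), an organic anion transporter, and Htatip2 (0.91). Those most like Cyp3a11 were Ifnar2 (0.87), Dusp3 (0.86) and Htatip2 (0.85). For Cyp3a25 they were Zfp358 (0.84), Slc35g1 (0.83) and Zzz3 (0.83), and for Cyp3a13 Fez2 (0.94), Saraf (0.94) and Crim1 (0.91). For Cyp3a44 they were Apcs (0.86), Rarb (0.86) and Aph1b (0.82). Cyp3a41a had 0 to 2 reads in 23 of the 26 libraries, so the genes most like it, Hmox1 (0.92), heme oxygenase, Nudt18 (0.89) and Smox (0.88), are genes high in the 3 knockout libraries. These values include the library labelled corn oil 1. Over the other 25 libraries the 18 correlations with named genes were 0.83 to 0.95, and Cyp3a25 with Cyp3a59 was 0.87.

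Other genes under the same receptors were followed as a list of 20 PXR and CAR targets, none of them a Cyp3a gene. The raised and lowered shares of all genes tested were 21.0% and 19.4% in the knockout and 2.27% and 2.50% on cholic acid. They were 12.9% and 11.1% on the high fat diet and 16.4% and 14.3% after hepatectomy. In Fxr-/- Shp-/- liver 15 of 20 were raised and 1 was lowered, with a median log2 fold change of 1.01 against -0.01 over all genes tested. Of the 15 raised genes 1 had fewer than 10 reads in every wild-type library, so its call supports nothing about the list. The largest changes were in Gsta1 (6.74 ± 0.30, SE; edgeR adjusted p 1.68e-06), a glutathione transferase, and Abcc4 (4.79 ± 0.34, adjusted p 2.18e-05), an export pump for bile acids and nucleotides. On cholic acid 12 of 20 were raised and 2 lowered (median 1.79 against 0.01), led by Gstm3 (6.22 ± 0.43, SE; edgeR adjusted p 0.00190) and including Abcb1a (4.94 ± 0.44, adjusted p 0.00205), a drug efflux pump. On the high fat diet 4 were raised and 9 lowered (median -0.29 against 0.01). Cyp2b10 was lowered there (-3.11 ± 0.41, SE; edgeR adjusted p 0.00808) while Abcb1a was raised (3.40 ± 0.31, SE; adjusted p 0.00353). After hepatectomy 2 were raised and 6 lowered (median -0.04 against 0.01). With TCPOBOP 0 of 20 were called with all libraries, as were 0% of all genes. Without the library labelled corn oil 1 the median was 1.88 against -0.01, and the largest change was in Cyp2b10 (8.31 ± 0.28, SE).

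The receptors and factors that act on Cyp3a transcription were followed as 16 genes, 15 of which passed the filter in each pair. Outside the TCPOBOP pair, the shares of all genes called are those given for the PXR and CAR targets. In Fxr-/- Shp-/- liver 0 were raised and 7 lowered (median log2 fold change -0.43 against -0.01 over all genes), among them the deleted genes Nr0b2 (-4.03 ± 0.39, SE; edgeR adjusted p 0.000107) and Nr1h4 (-1.27 ± 0.13, adjusted p 0.000149) and the CAR gene Nr1i3 (-1.04 ± 0.13, adjusted p 0.000370). After hepatectomy 1 was raised and 7 lowered (median -0.40 against 0.01), and Nr1i2, which encodes PXR, was among the lowered (-0.73 ± 0.12, SE; edgeR adjusted p 0.00363). On cholic acid 4 were raised and 2 lowered (median 0.21 against 0.01). Nr0b2, a target of Fxr, was raised (1.96 ± 0.27, SE; edgeR adjusted p 0.00982) and Nr1h4 was lowered (-1.01 ± 0.19, adjusted p 0.0219). On the high fat diet 1 was raised, Onecut1, and 1 was lowered, Hnf4a (-0.68 ± 0.14, SE; edgeR adjusted p 0.0233), a factor of hepatocyte genes (median -0.16 against 0.01). With TCPOBOP 0 of 15 were called with all libraries. Without the library labelled corn oil 1 the median was -0.20 against -0.01, with Cebpa at -0.74 ± 0.14 (SE).

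Partners that supply electrons or heme to the cytochromes were 9 genes, all tested in each pair. The shares of all genes called outside the TCPOBOP pair are again those given for the PXR and CAR targets. In the knockout 5 were raised and 2 lowered (median log2 fold change 0.55 against -0.01), among them Hmox1, which breaks heme down (2.96 ± 0.32, SE; edgeR adjusted p 0.000194), and Cyb5a, cytochrome b5 (0.59 ± 0.12, adjusted p 0.00465). After hepatectomy 1 was raised and 3 lowered, with Por, the cytochrome P450 reductase, lowered (-1.09 ± 0.25, SE; edgeR adjusted p 0.0131). On cholic acid 0 were raised and 1, Cyb5r3, was lowered. On the high fat diet 0 of 9 were called (median 0.00 against 0.01). With TCPOBOP 0 of 9 were called with all libraries. Without the library labelled corn oil 1 the median was -0.22 against -0.01. Por stood at 2.95 ± 0.19 (SE) and Alas1, the first enzyme of heme synthesis, at 1.64 ± 0.17 (SE).

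Since Cyp3a16, Cyp3a41a and Cyp3a44 are known from female liver, genes of the sex-dependent liver program were counted as well. For the cholic acid, high fat and hepatectomy pairs the shares of all genes called are those given for the PXR and CAR targets. In Fxr-/- Shp-/- liver, where 21.0% of all genes were raised and 19.4% lowered, 12 of 13 tested female-biased genes were raised and 0 lowered, and all 14 male-biased genes were lowered. Of these 13 genes 8 had fewer than 10 reads in every wild-type library and passed the filter only through the knockout, so these had to differ and the count supports nothing about the list. The largest changes among the female-biased genes were in Sult2a1 (12.74 ± 0.27, SE) and Cyp2b9 (11.90 ± 0.29, SE). Whether these 2 are among the 8 is not given here, so they add no support. Of the 14 male-biased genes 0 had fewer than 10 reads in every wild-type library, and an example is Slco1a1 (-10.54 ± 0.38, SE; edgeR adjusted p 4.79e-07). Male-biased genes were also lowered on the high fat diet (13 of 14) and on cholic acid (10 of 14), where 5 of 9 and 1 of 7 tested female-biased genes were raised (3 of the 9 and 2 of the 7 had fewer than 10 reads in every control library) and Cyp3a41a had 0 reads in the high fat libraries and 2 reads in the cholic acid libraries. After hepatectomy 5 of 8 tested female-biased genes were lowered and 0 raised, while 1 male-biased gene was raised and 7 were lowered. With TCPOBOP none of either list was called with all libraries. Without the library labelled corn oil 1 the median log2 fold change was 2.08 over 9 female-biased genes and -0.50 over 14 male-biased genes, against -0.01 over all genes. Only corn oil 2 was then left as control. How many female-biased genes passed the filter through the TCPOBOP libraries alone was not counted, so that median supports nothing about the list. All libraries had the low Xist and the Ddx3y reads given above.

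Cyp3a11 is known as a gene of the cells around the central vein, so genes of the liver lobule's zones were counted too. Of all genes tested, 12.9% were raised and 11.1% lowered on the high fat diet, and 2.27% and 2.50% on cholic acid. In the knockout these shares were 21.0% and 19.4%, and after hepatectomy 16.4% and 14.3%. On the high fat diet 8 of 10 pericentral genes were lowered and 0 raised (median log2 fold change -1.16 against 0.01), among them Cyp1a2 (-2.40 ± 0.12, SE; edgeR adjusted p 0.000776) and Glul, glutamine synthetase (-1.35 ± 0.13, adjusted p 0.00404), while 4 of 10 periportal genes were raised and 2 lowered. On cholic acid, where Cyp3a11 was raised, 5 of 10 pericentral genes were lowered and 0 raised (median -0.63 against 0.01), and 1 periportal gene was raised and 1 lowered. In the knockout 2 of 10 pericentral genes were raised and 2 lowered, near the shares over all genes, and 1 of 10 periportal genes was raised and 7 lowered. After hepatectomy the counts were 1 and 3 for pericentral and 0 and 8 for periportal genes. With TCPOBOP 0 of these 20 genes were called with all libraries. Without the library labelled corn oil 1 the median log2 fold change was -0.55 for pericentral and -0.67 for periportal genes, against -0.01 over all genes.

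In the knockout, where 21.0% of all genes were raised, markers of other liver cells were counted too. Raised were 5 of 6 cholangiocyte genes, 3 of 5 stellate genes, 2 of 5 endothelial genes and 1 of 5 macrophage genes, the last near that share. Of the raised cholangiocyte genes 1 had fewer than 10 reads in every wild-type library, so its call adds no support. The summed marker levels were 27.3 to 38.2 CPM in wild type and 58.0 to 136 CPM in the knockout for cholangiocytes and 47.8 to 79.8 and 104 to 114 CPM for stellate cells. The hepatocyte marker sum was 86481 to 113662 CPM in wild type and 65856 to 86215 CPM in the knockout. The gut markers Sis, Lct and Alpi were at 0 in all 3 knockout libraries. The sum of all 5 gut markers was 44.2 to 60.2 CPM in wild type and 11.8 to 14.5 CPM in the knockout. Among them Fabp2 was lowered (log2 fold change -2.02 ± 0.14, SE, edgeR adjusted p 2e-05). Fabp2 was also lowered after hepatectomy (-0.50 ± 0.10, SE) and raised on the high fat diet (1.22 ± 0.11, SE). On cholic acid, where 2.27% of all genes were raised, 1 macrophage and 1 stellate marker were raised and 0 markers of cholangiocytes or endothelium were called. The part of these cells in the Cyp3a values was not tested.

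**Figure D5:**
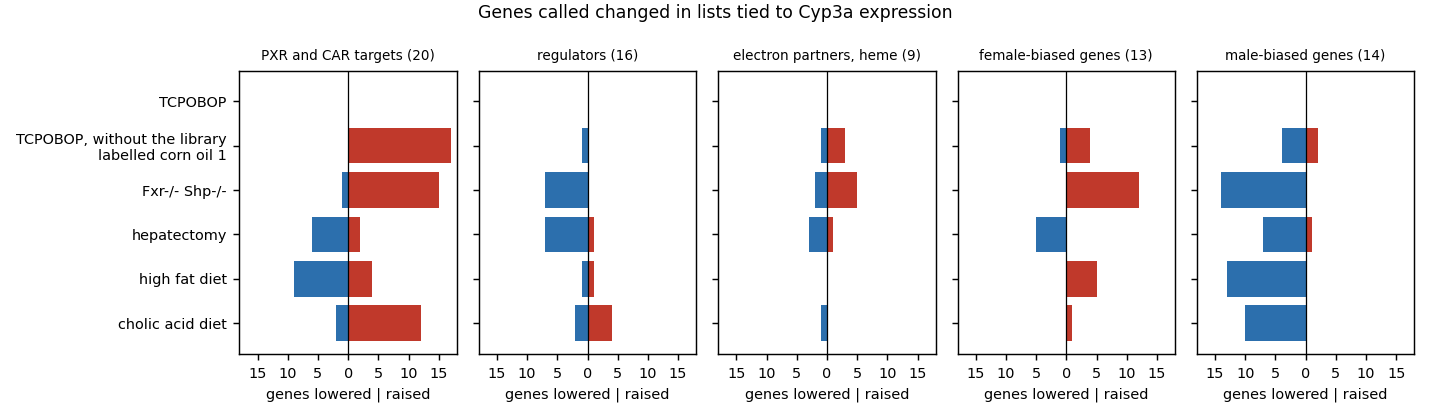
Number of genes called raised (red, to the right) and lowered (blue, to the left) in edgeR's quasi-likelihood test for 5 lists, in the 5 pairs and in the TCPOBOP pair without the library labelled corn oil 1. The number in each panel title is the size of the list. PXR and CAR targets are mostly raised in the knockout (15 of 20) and on cholic acid (12), and all 14 male-biased genes are lowered in the knockout. The bars of the TCPOBOP pair without that library rest on 1 control library.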

How the data were processed

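For 26 liver mRNA libraries the authors deposited raw read counts per gene in 1 table, with 5 summary lines for unassigned reads, which were left out of totals and tests. Per the submitters' processing notes, the tools were bcl2fastq 2.17.1.14, Trimmomatic, STAR 2.4.2a, Picard 1.119 and HTSeq, with GRCm38 and mm10 as builds; per the labels' protocols the library kit keeps strand. Whether counting used strand, the annotation and the read length are not given in the sources used here. Of 47643 gene identifiers 47224 were matched to a symbol without their version, and 0 columns were left unused.

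The 8 members and all gene lists were chosen with earlier results of these data known. Genes were filtered with filterByExpr of edgeR 4.0.16 (minimum count 10, minimum total 15), with TMM scaling, and tested with the quasi-likelihood F test, separately in each pair, with Benjamini-Hochberg adjustment over all genes; differences between pairs used joint fits. The SE is the absolute log2 fold change over the square root of F. DESeq2 1.42.0 was an alternative, and the other alternatives are listed with the limits. The fits were tested on simulated counts. Genes named from a list are up to 4 called genes with the largest change in a pair. Genes most like a member are the 3 with the highest correlation of log2 CPM (prior count 2) among genes with a mean of at least 1. Transcript sequence, exons and coordinates are from GENCODE M21 and upstream sequence is from RefSeq.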

Additional observations from a re-analysis of the deposited data

Results flagged for a closer look

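The members whose response differed between pairs of groups by the test of the difference itself are listed with the difference of their log2 fold changes, its SE and edgeR's adjusted p. Between Fxr-/- Shp-/- and cholic acid these were Cyp3a25 (-1.78 ± 0.25, adjusted p 0.000743), Cyp3a59 (-2.73 ± 0.55, adjusted p 0.00599) and Cyp3a11 (-1.01 ± 0.31, adjusted p 0.0492). The Cyp3a11 call was lost with DESeq2's size factors (edgeR adjusted p 0.0561), the replicate block (0.0502), all 26 libraries in 1 fit (0.169) and that fit without the library labelled corn oil 1 (0.0702), and in 9 of 12 fits that left out 1 library. Between Fxr-/- Shp-/- and the high fat diet they were Cyp3a11 (5.43 ± 0.26, adjusted p 8.78e-07) and Cyp3a59 (1.75 ± 0.29, adjusted p 0.00244). Between the high fat diet and cholic acid they were Cyp3a11 (-6.42 ± 0.37, adjusted p 4.96e-05), Cyp3a59 (-4.46 ± 0.69, adjusted p 0.00845) and Cyp3a25 (-2.00 ± 0.29, adjusted p 0.00602). Between hepatectomy and cholic acid they were Cyp3a25 (-1.85 ± 0.30, adjusted p 0.00205) and Cyp3a59 (-3.44 ± 0.59, adjusted p 0.00326). The pairs also differ in strain, age, fasting or preparation, and these cannot be told apart from the treatments.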

How the results depend on the processing

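Scaling by DESeq2's size factors and the filter on a mean count of 10 kept the number of members called in each of the 5 pairs. Over the settings other than leaving out 1 library, member values in the pairs kept their direction and their side of the threshold in 165 values, crossed it upward in 12 and downward in 12, and changed sign in 3. Leaving out 1 library each time gave 105 unchanged, 11 upward, 3 downward and 7 with a changed sign. For the differences between pairs these were 151, 2, 6 and 0, and 200, 3, 11 and 6. The causes were not tested. Cyp3a41a, Cyp3a41b and Cyp3a16 rest on few reads, and 3 reads correspond to 0.0403 to 0.218 CPM.

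Members called, with the setting of the report first, were 5 in the knockout and 1 with all 26 libraries in 1 fit or 3 without the library labelled corn oil 1 in that fit, 3 on the high fat diet and 1 in both of these fits, and 0 with TCPOBOP and 3 in the fit without that library. After hepatectomy 0 were called, against 1 with library size alone, 1 with DESeq2's Wald test, 2 with no filter and 2 in the fit of all libraries but 1. Between Fxr-/- Shp-/- and the high fat diet 2 differed, against 4 with DESeq2's Wald test and 1 in both joint fits, where Cyp3a59 had adjusted p 0.0655 and 0.0524. Leaving out 1 library gave 0 to 5 members with TCPOBOP (5 without corn oil 1, 2 without corn oil 2) and 0 to 2 after hepatectomy. The family total moved with library size alone from a log2 ratio of 0.73 to 0.93 in the knockout and from -2.05 to -1.92 on the high fat diet.

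Cyp3a13 on cholic acid (-0.02) was 0.17 with library size alone, 0.00 with no filter and 0.02 with the replicate block. Leaving out 1 library, uncalled values ranged across 0: after hepatectomy Cyp3a13 from -0.04 to 0.31 and Cyp3a59 from -0.14 to 0.38, and on cholic acid Cyp3a13 from -0.19 to 0.34. For differences, Cyp3a13 ranged from -0.13 to 0.42 (knockout and cholic acid), -0.43 to 0.02 (knockout and high fat) and -0.17 to 0.37 (hepatectomy and cholic acid), and Cyp3a44 from -1.87 to 1.82 (knockout and cholic acid) and -1.94 to 1.80 (hepatectomy and cholic acid).

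Replicate numbers did not pair the libraries: correlations of deviations of same-numbered libraries were -0.136 to 0.095. With the replicate block the members called stayed at 5 in the knockout, 3 on cholic acid, 0 after hepatectomy and 0 with TCPOBOP, and went from 3 to 4 on the high fat diet, where Cyp3a13 had adjusted p 0.0297. Members that differed between knockout and cholic acid went from 3 to 2, with Cyp3a11 at adjusted p 0.0502.

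Counts of all genes called changed by more than 1.5 times as follows. With TCPOBOP 0 became 109 (DESeq2's Wald test), 9 (26 libraries), 569 (25 libraries) and up to 1233 (without corn oil 1). On cholic acid 600 became 1445 (Wald test), 955 (no filter), 3132 (26 libraries), 3348 (25 libraries) and 189 to 1345 (1 library left out). On the high fat diet 3333 became 1735 and 1962 in the joint fits and as low as 1141 without high fat replicate 1, and after hepatectomy 4225 became as low as 2554 without sham replicate 2. For differences, 1939 became 2991 and 3185 in the joint fits (knockout and cholic acid), 2297 became 1282 with 26 libraries and 1269 without high fat replicate 2 (knockout and high fat), 858 became 1942 (Wald test), 446 (replicate block), 2435 and 2678 (joint fits) and 76 to 1958 with 1 library left out (high fat and cholic acid), and 1820 became 2749 and 2970 in the joint fits and 1089 without sham replicate 2 (hepatectomy and cholic acid).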
